A study of Mus musculus with 15 samples.

Results

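The ceramide synthase genes Cers1, Cers2, Cers3, Cers4, Cers5 and Cers6 were examined together with Gdf1, a growth factor gene that lies inside the end of Cers1. These 7 genes were taken from the 53337 genes of the table, and their 37 transcript rows from 133445 rows that could be assigned to a gene. The locus was selected on a measured value of these same libraries, the TPM of Gdf1 in AVP against saline males. That contrast is therefore described for Gdf1 and for Cers1, whose exons it shares, and not tested. The other synthases were added as the rest of the family. The libraries are stranded mRNA-seq of embryonic day 18 dorsal forebrain, the precursor of the cortex, from C57BL/6J mice. Dams had been given arginine vasopressin (AVP) or saline by subcutaneous minipump throughout pregnancy, a model of preeclampsia, and the saline offspring are labelled vehicle. The AVP groups held 4 males and 3 females and the saline groups 4 of each sex, 1 brain to a library. The brains came from 8 litters for 16 samples, 1 AVP female having been excluded by the study, and the labels do not tie a brain to a litter. Values are TPM, the abundance of a transcript per 1000000 transcripts, corrected for its length and for the size of the library. Libraries are named here by treatment, sex and the number in the sample name.

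Ceramide synthases are membrane enzymes of the endoplasmic reticulum. They join a fatty acid, carried as acyl-CoA, to a sphingoid base and so make the ceramide from which sphingomyelin and the gangliosides of neurons are built. Members of the family differ in the fatty acid they prefer. CERS1 uses stearoyl-CoA and is the main enzyme of neurons, CERS2 uses very long chains and is prominent in myelinating cells, CERS3 serves skin and testis, and CERS5 and CERS6 use palmitoyl-CoA. GDF1 is a secreted ligand of the TGF-beta family that acts with Nodal in left-right patterning of the embryo. Its message is unusual: in the brain, 1 long transcript holds the CERS1 reading frame followed by that of GDF1.

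The annotation (GENCODE M21, GRCm38) places Cers1 at chr8:70315775-70331592 and Gdf1 at chr8:70329817-70331587, both on the plus strand, so Gdf1 lies wholly within Cers1. The table holds 4 rows for the locus. Cers1-202 has 8 exons and 2711 bases and carries the CERS1 reading frame of 1050 coding bases. Cers1-203 has the same 8 exons and 2728 bases, with longer ends, but is annotated with the GDF1 reading frame of 1071 coding bases. Gdf1-201 has 2 exons and 1349 bases and carries the same 1071 coding bases. Cers1-201 is a retained intron row of 787 bases with its own intronic sequence. In the full-length rows the CERS1 frame ends 401 bases before the start codon of GDF1. The other synthases are separate protein-coding genes. Cers2 is at chr3:95314791-95323599, Cers3 at chr7:66743504-66823691, Cers4 at chr8:4493026-4531680 and Cers6 at chr2:68861441-69114282 on the plus strand, and Cers5 is at chr15:99734881-99772885 on the minus strand. Of the 37 rows of the 7 genes, 36 were above 0 in some library and 24 reached 1 TPM in at least 50% of the 15 libraries. Cers6-205 was listed at 0 in all of them.

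The sequences below show how little separates these rows. They were read from the GENCODE transcripts, plus strand, GRCm38. Capitals in the first 2 mark the bases of Cers1-203 that Cers1-202 lacks, 12 at the 5′ end and 5 at the 3′ end. In the reading frames, capitals mark the start and stop codons. Gdf1-201 begins with bases that also lie inside Cers1-202, so nothing in it is in capitals.
Cers1-203, first 30 bases, chr8:70315775-70315804: TGCCTGGCTGCGgcgcgtgacgcgagggcg
Cers1-203, last 30 bases, chr8:70331563-70331592: caaatttgactaaaaattaagttccATTGC
CERS1 reading frame, first 30 bases, chr8:70315860-70315889: ATGgctgctgccgcggcgacccccaggctc
CERS1 reading frame, last 30 bases, chr8:70329551-70329580: aatggcctggtgaaggacaagctcttcTGA
GDF1 reading frame, first 30 bases, chr8:70329982-70330011: ATGctccctgtctgccatcgtttttgcgac
Gdf1-201, first 30 bases, chr8:70329817-70329846: cgaccacccaccttgggactgccgcccagt

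Kallisto, with which the study quantified its reads, assigns a read by the rows that hold its 31-base words. Of the 1319 words of Gdf1-201, 0 were its own: all 1319 were also in Cers1-202 and Cers1-203. Cers1-202 had 0 words of its own among 2681. Cers1-203 had 17 of 2698, all made by its 12 and 5 extra bases. By contrast, 1048 words were in Cers1-202 and Cers1-203 but not in Gdf1-201. A further 443 were in Cers1-201 alone. The reads of the last 2 exons are therefore shared out between 3 rows by an estimate. The Upf1 gene on the opposite strand overlaps Cers1 by 68 bases, and the study counted with strand.

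**Figure D1:**
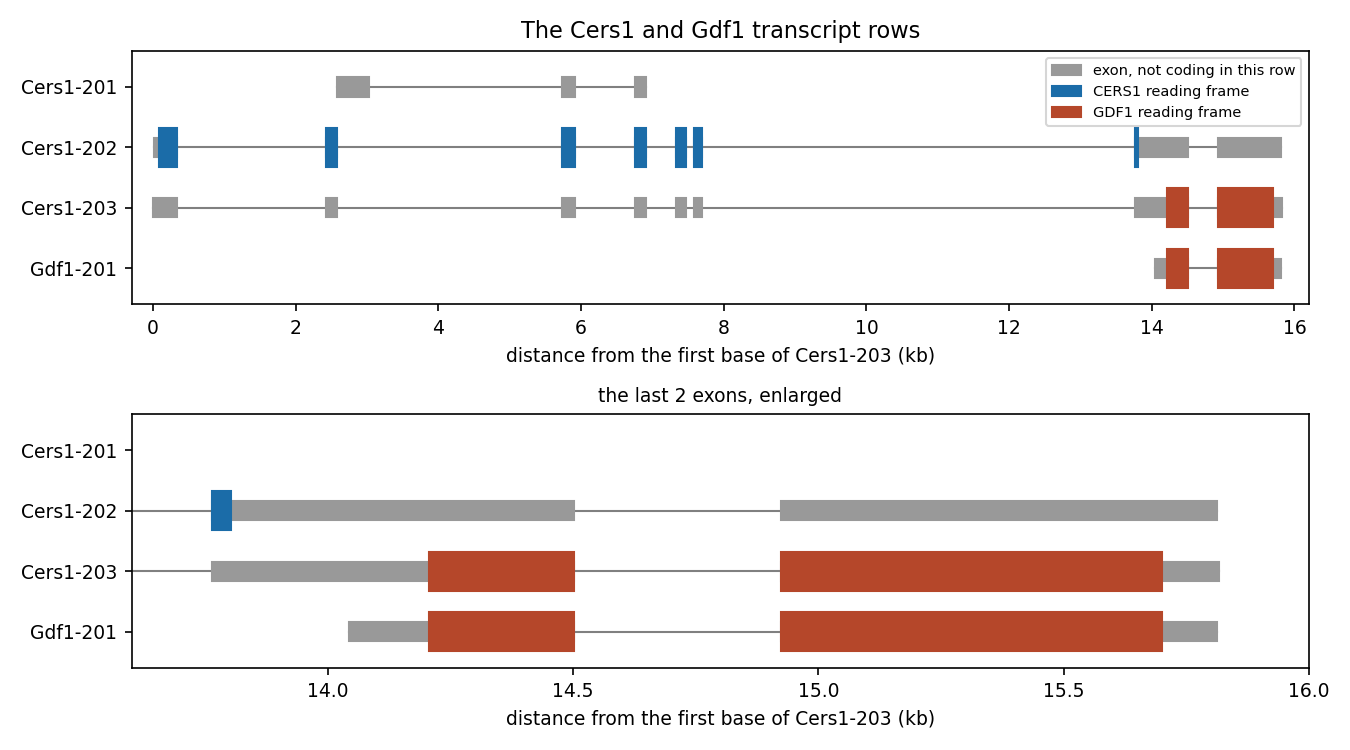
The 4 transcript rows of Cers1 and Gdf1, drawn to scale as distance in kb from the first base of Cers1-203, with the last 2 exons enlarged below. Thin boxes are exons, blue is the CERS1 reading frame and red the GDF1 reading frame: Cers1-203 has the exons of Cers1-202 with the reading frame of Gdf1-201, and Gdf1-201 lies wholly inside both.

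All libraries held the transcripts of the labelled tissue: the 6 dorsal forebrain markers passed 1 TPM in at least 50% of the libraries, with summed levels of 1045 to 1446 TPM in AVP males and 1175 to 1367 TPM in saline males. The library labelled saline male 12 did not match its label. It had 266 TPM of Xist against 174 to 294 TPM in the females and at most 1.13 TPM in the other males, and 0.489 TPM over 4 Y-linked genes against 102 to 155 TPM in the other males. It was kept as labelled. Male results without it are also given for the expressed synthases, counts of member rows and the summed rows of the GDF1 frame. Those of Gdf1 alone, the other gene lists and the neighbours include it. The 15271 genes tested in males had a median log2 fold change of -0.10 between AVP and saline, and 73.6% of them were lower with AVP. With median-of-ratios scaling of the libraries, the median was 0.0034 and 49.4% were lower. The summed levels of all 11 lists of cell type markers overlapped between the male groups. Some varied widely within a group. Choroid plexus markers summed to 4.98 to 630 TPM in AVP males and 2.02 to 696 TPM in saline males. In females they summed to 16.5 to 2248 TPM with AVP and 4.06 to 943 TPM with saline. The part of this spread in the member values was not tested.

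The members spanned a wide range of levels, which TPM allow to be compared between genes. Over the 15 libraries Cers5 averaged 54.5 TPM, Cers2 48.4 TPM, Cers4 31.3 TPM, Cers6 26.2 TPM and Cers1 25.2 TPM. Cers2 was above Cers4 within each of 15 of 15 libraries, though their ranges over the libraries overlapped (32.5 to 64.1 and 19.6 to 46.3 TPM). The others were not: Cers5 was above Cers2 in 13, Cers4 above Cers6 in 12 and Cers6 above Cers1 in 12 of 15. These gene levels include rows not annotated as coding, which held most of the Cers4 TPM. On coding rows alone the means were 52.4 TPM for Cers5, 34.4 for Cers2, 26.03 for Cers6, 23.7 for Cers1 and 7.25 for Cers4. Cers4 thus had the lowest of these means, with 10.4 TPM in its highest library. The Cers1 value includes Cers1-203, which is annotated with the GDF1 frame. Cers1-202, the row with the CERS1 frame, averaged 19.2 TPM. It was at 4.12 TPM in AVP male 1, below the 4.69 TPM of the Cers4 coding rows in that library. In every other library Cers1-202 was at 14.7 TPM or more, above the highest Cers4 value. Gdf1 averaged 2.23 TPM and was below Cers1 in 15 of 15 libraries. Cers3, the synthase of skin and testis, had 0.219 to 0.868 TPM and passed the filter in neither sex. The levels of Cers5 varied least, with a standard deviation of 0.15 on the log2(TPM + 0.5) scale over the 15 libraries, against a median of 0.22 for the 15078 genes that passed the filter over all libraries. The corresponding value was 0.24 for Cers1, 0.39 for Cers4 and 1.49 for Gdf1.

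**Figure D2:**
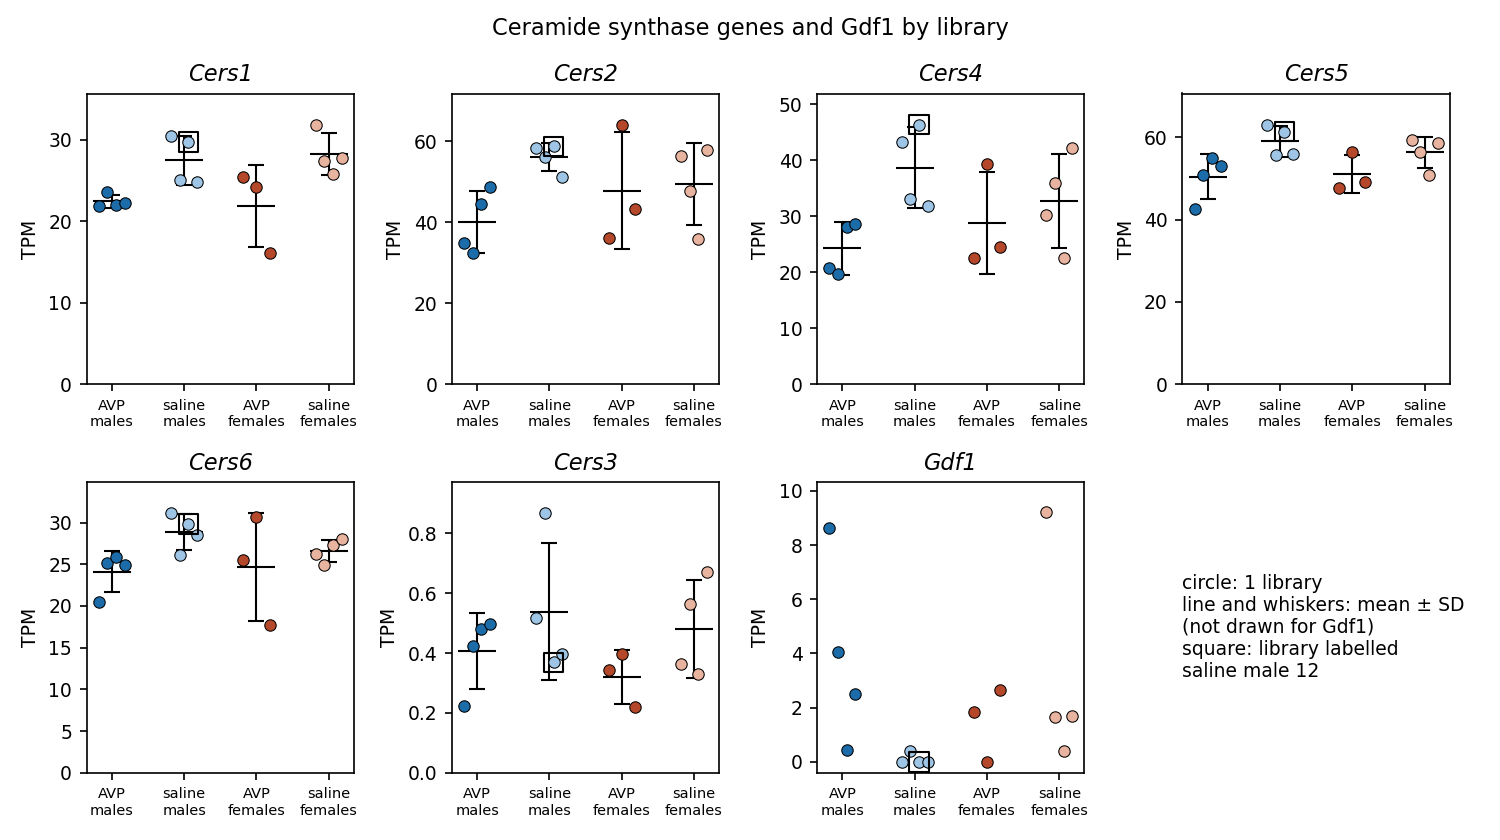
TPM of each member in each library, by treatment and sex. Circles are libraries, lines and whiskers the mean ± SD (not drawn for Gdf1), and the square marks the library labelled saline male 12. In Cers1, Cers2, Cers4, Cers5 and Cers6, every AVP male sits below every saline male, as in 6.54% of all genes tested in males. With median-of-ratios scaling (not drawn) this held only for Cers2 and Cers4 among them. In Gdf1, 3 of the 4 saline males are listed at 0.

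Gdf1 was the member on which the locus was chosen, and its values in males are a description. AVP male 1 had 8.62 TPM, AVP male 2 had 4.04 TPM, AVP male 8 had 0.434 TPM and AVP male 9 had 2.49 TPM. Saline male 5 had 0.399 TPM, and saline males 4, 12 and 13 were listed at 0. The groups did not overlap, but AVP male 8 and saline male 5 were 0.0353 TPM apart. The mean difference was 2.50 on the log2(TPM + 0.5) scale, a value that depends on the pseudocount because saline values lie at or near 0. In females the order was not the same. AVP females 3, 10 and 11 had 1.86, 0 and 2.64 TPM, and saline females 6, 7, 14 and 15 had 9.22, 1.64, 0.417 and 1.68 TPM. These ranges overlapped, the lowest value being an AVP and the highest a saline library, and saline female 6 had the highest Gdf1 value of all 15 libraries. The difference in females was -0.72 on the log2(TPM + 0.5) scale, with p = 0.571 by a two-sided exact permutation test (n = 3 and 4), for which the smallest possible p is 0.0571.

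The split of the locus over its rows gives those values their setting. Cers1-203, the other row annotated with the GDF1 frame, varied as widely as Gdf1-201. In AVP males 1, 2, 8 and 9 it was at 16.8, 0.000504, 2.89 and 4.56e-05 TPM. In saline males 4, 5, 12 and 13 it was at 9.98, 2.28, 10.7 and 6.75 TPM. Here 3 of 4 saline males, those listed at 0 for Gdf1-201, were above 3 of 4 AVP males, the reverse of the order of Gdf1-201. Summed, the rows annotated with the GDF1 frame were at 25.4, 4.04, 3.32 and 2.49 TPM in AVP males 1, 2, 8 and 9. In saline males 4, 5, 12 and 13 they were at 9.98, 2.68, 10.7 and 6.75 TPM. The groups overlapped. The mean difference was -0.25 on the log2(TPM + 0.5) scale, while the mean of the TPM was higher with AVP, 8.81 against 7.52, so the direction depends on the scale. Leaving out saline male 12, the log2 difference was -0.041, and the saline values ran from 2.68 to 9.98 TPM.

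Cers1-202 carried most of the locus, with 76.6% ± 19.7 (SD, n = 15) of the Cers1 TPM. AVP male 1 stood apart: its Cers1-202 was at 4.12 TPM, against 18.2 to 22.7 TPM in the other AVP males and 16.7 to 21.2 TPM in saline males. In that library 80.3% of the full-length TPM was on Cers1-203. The share of the full-length TPM on Cers1-203 was under 0.03% in AVP males 2 and 9, AVP females 10 and 11 and saline females 7 and 15, and 9.70% to 38.4% in saline males. Gdf1-201 made up 28.3% of the locus in AVP male 1, 22.5% in saline female 6 and 0% in 4 of 15 libraries.

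**Figure D3:**
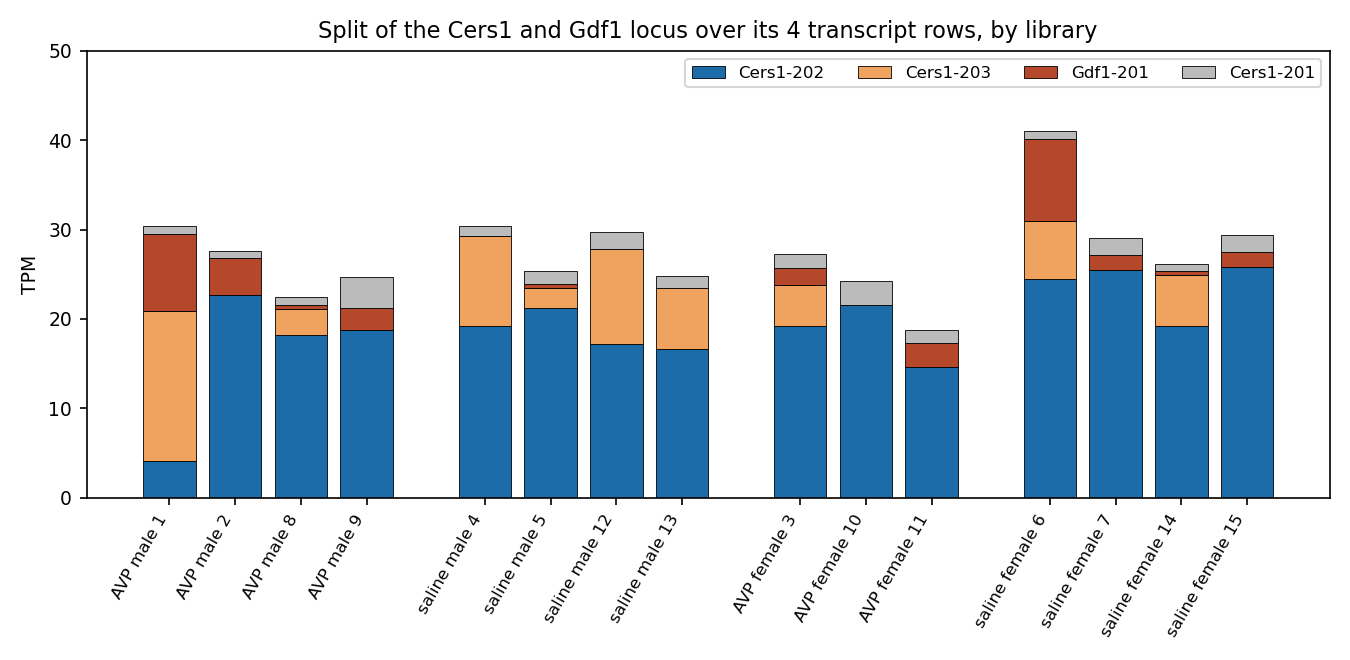
TPM of the 4 rows of the locus in each library, stacked, with groups set apart. The total height differs little between male groups (22.4 to 30.4 TPM with AVP, 24.8 to 30.4 TPM with saline), while the split between Cers1-202, Cers1-203 and Gdf1-201 differs from library to library within each group.

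Sums over all rows of the last exons hardly depend on the division between Cers1-202 and Cers1-203, but they are not free of the split. TPM divide by length, and Gdf1-201 has 1349 bases against 2711 in Cers1-202. A read given to Gdf1-201 therefore adds more TPM to the sum. The 3 rows that share the last 2 exons summed to 29.5, 26.8, 21.6 and 21.3 TPM in AVP males 1, 2, 8 and 9, and to 29.2, 23.9, 27.8 and 23.4 TPM in saline males 4, 5, 12 and 13. The ranges overlapped, with a mean difference of -0.08 on the log2 scale. The full-length rows alone also depend on how many reads were given to Gdf1-201. These, Cers1-202 and Cers1-203, were 18.8 to 22.7 TPM in AVP males and 23.4 to 29.2 TPM in saline males, without overlap. In females they were 14.7 to 23.8 TPM with AVP and 25.0 to 30.9 TPM with saline, again without overlap. Every AVP library was below every saline library for 6.54% of all genes tested in males and 2.77% in females. Whether Gdf1-201 stands for a separate transcript in any library was not tested, since the table cannot tell it from the end of the full-length rows.

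Such rows are not rare. No 31-base word of their own was held by 17464 rows, 13.1% of all rows with a gene. Among the 4774 of them that passed 1 TPM in at least 50% of the 15 libraries, 14% were listed at 0 in some library, against 9.33% of the 33091 rows with words of their own. All AVP males were above all saline males in 0.796% of the first and 0.762% of the second.

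Cers1 itself, as the sum of its 3 rows, was lower with AVP in both sexes. AVP males 1, 2, 8 and 9 had 21.8, 23.6, 22.0 and 22.2 TPM. Saline males 4, 5, 12 and 13 had 30.4, 25.0, 29.7 and 24.8 TPM. Every AVP male was below every saline male, which held for 6.54% of all genes tested in males. The mean difference was -0.28 on the log2 scale, -0.24 without saline male 12 and -0.17 with median-of-ratios scaling, under which the groups overlapped. Reads given to Gdf1-201 are taken from these rows, and with all 4 rows of the locus summed the male groups overlapped, at 22.4 to 30.4 TPM and 24.8 to 30.4 TPM. That sum is not free of the split either, because a read adds more TPM in the shorter Gdf1-201. In females, AVP libraries had 25.3, 24.2 and 16.1 TPM and saline libraries 31.8, 27.4, 25.8 and 27.7 TPM. These groups did not overlap either, which held for 2.77% of the 15132 genes tested in females. The log2 fold change in females was -0.38 ± 0.17 (SE), with an adjusted p of 0.999 by limma. AVP female 11 had the lowest Cers1 value, and without it the fold change was -0.18. Gdf1 and Cers1 summed gave 23.4 ± 4.30 TPM in AVP females and 31.4 ± 6.58 TPM in saline females (SD, n = 3 and 4). That difference, -0.41 on the log2 scale, had p = 0.114 by the two-sided exact permutation test.

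Cers4 and Cers2 showed the widest gaps in males. Cers4, which makes ceramides of long and very long chains, was at 20.8, 19.6, 28.0 and 28.7 TPM in AVP males 1, 2, 8 and 9. Saline males 4, 5, 12 and 13 had 43.3, 33.1, 46.3 and 31.8 TPM. The AVP mean was 37.2% below the saline mean, and no AVP library reached a saline library. The log2 fold change was -0.66 ± 0.17 (SE; 95% interval -1.04 to -0.28), or -0.56 relative to the median of all genes. Cers2 was at 34.96, 32.5, 44.4 and 48.7 TPM in AVP males and at 58.2, 56.1, 58.7 and 51.2 TPM in saline males, in the same order. The AVP mean was 28.4% below the saline mean, again without overlap, and the log2 fold change was -0.49 ± 0.13 (SE; 95% interval -0.79 to -0.20), or -0.39 relative to all genes. Genes of the oligodendrocyte lineage, in which CERS2 is prominent, summed to 61.4 to 86.4 TPM in AVP males and 75.3 to 96.9 TPM in saline males, and 1 of 6 had an unadjusted p under 0.05. Their part in the Cers2 values was not tested. Neither gene passed the threshold: both had an adjusted p of 0.304 by limma, unadjusted p = 0.00349 and 0.00405. Without saline male 12 the fold changes were -0.57 and -0.47. Within the libraries numbered 1 to 7 the male differences were -0.89 for Cers4 and -0.75 for Cers2, and within those numbered 8 to 15 they were -0.43 and -0.24 (2 libraries per group in each).

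Cers5 and Cers6, the enzymes of palmitoyl chains, differed less. Cers5 was at 42.7, 50.9, 55.1 and 53.1 TPM in AVP males and 63.1, 55.7, 61.4 and 56.1 TPM in saline males. The highest AVP library and the lowest saline library were 55.1 and 55.7 TPM, so the groups stayed apart by a narrow margin. Cers6 was at 20.5, 25.2, 25.8 and 24.9 TPM in AVP males and 31.1, 26.1, 29.8 and 28.5 TPM in saline males. AVP male 1 was well below the rest of its group, and the margin between groups was again narrow, 25.8 against 26.1 TPM. The log2 fold changes were -0.23 ± 0.091 for Cers5 and -0.26 ± 0.097 for Cers6 (SE), with adjusted p = 0.333 and 0.321 by limma. Relative to the median of all genes they were -0.13 and -0.16. They were -0.21 and -0.24 without saline male 12.

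All 4 synthases tested in males were thus lower in every AVP male than in every saline male. Over all genes tested in males that was so for 6.54%. With median-of-ratios scaling it was so for 2 of the 4, Cers2 and Cers4, and for 2.44% of all genes. By limma, 0 of the 4 synthases tested in males passed an adjusted p of 0.05, as did 1 gene of 15271 (0.00655%). At an unadjusted p under 0.05, 4 of 4 were lower with AVP, against 12.4% of all genes. Without saline male 12, 2 of 4 had a p under that value, Cers2 and Cers4. With median-of-ratios scaling it was again Cers2 and Cers4, against 4.98% of all genes, and Cers5 and Cers6 had log2 fold changes of -0.12 and -0.15.

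In females the same 4 genes showed small differences with wide intervals. The log2 fold changes were -0.19 ± 0.25 for Cers4, -0.07 ± 0.23 for Cers2, -0.14 ± 0.10 for Cers5 and -0.14 ± 0.18 for Cers6 (SE), and the groups overlapped in each. For Cers2, AVP libraries had 36.2, 64.1 and 43.2 TPM and saline libraries 56.4, 47.7, 35.9 and 57.9 TPM. The highest and the second lowest value of the sex were thus both AVP libraries. For Cers4, AVP libraries had 22.5, 39.3 and 24.5 TPM and saline libraries 30.3, 35.9, 22.6 and 42.1 TPM. By limma 0 of 6 members tested in females passed, nor did any gene (0% of 15132), while 683 genes had an unadjusted p under 0.05. All 6 members had the same adjusted p of 0.999. Meningeal fibroblast markers moved with treatment in females: their sum was 156 to 232 TPM with AVP and 95.8 to 109 TPM with saline, and 5 of 5 had an unadjusted p under 0.05. Endothelial markers summed to 126 to 134 TPM with AVP and 71.4 to 117 TPM with saline. The 4 red blood cell genes were at 5120 to 13640 TPM with AVP and 2237 to 5696 TPM with saline, and 4 of 4 had an unadjusted p under 0.05. Their part in the female values was not tested. Fewer cells of a type and less RNA per cell cannot be told apart in these bulk samples.

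The difference between the sexes in the response to AVP was tested directly for the 4 synthases. The fits over both sexes had no term for the litters that males and females shared. It was 0.47 ± 0.32 for Cers4 and 0.43 ± 0.27 for Cers2 (SE, female minus male fold change on the log2 scale), and 0.09 and 0.12 for Cers5 and Cers6. Adjusted p ranged from 0.896 to 0.919 by limma, and 0% of the 15078 genes tested passed, 624 of them having an unadjusted p under 0.05. The 95% interval was -0.21 to 1.15 for Cers4 and -0.15 to 1.01 for Cers2, so a sex difference of either sign was within the error. Without saline male 12 the values for Cers4 and Cers2 were 0.38 and 0.41. Between all males and all females, the 5 synthases differed by -0.061 (Cers6) to -0.0024 (Cers2) on the log2 scale and Gdf1 by 0.65. For Gdf1 and Cers1 this is a description, since the male values on which the locus was selected enter it. Cers2, Cers4, Cers5 and Cers6 had adjusted p = 0.99997 by limma, with 210 genes at an unadjusted p under 0.05 and 0 called. In that comparison, without saline male 12, 7 genes were called and no member was among them.

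**Figure D4:**
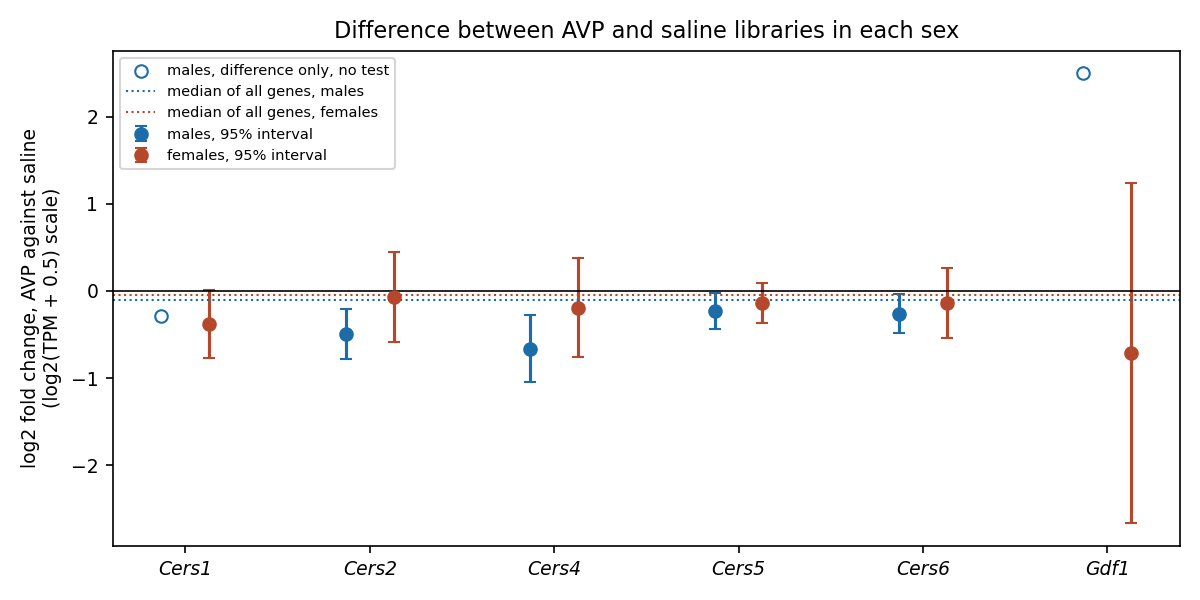
Log2 fold change of AVP against saline in males (blue) and females (red), on the log2(TPM + 0.5) scale. Filled points carry the 95% interval of the limma fit, open points are differences of means that were not tested, and dotted lines are the medians of all genes tested. The 4 tested male intervals lie below 0, and the female intervals include 0.

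Among transcript rows, 19 rows of Cers2, Cers4, Cers5 and Cers6 passed the filter in males, and 18 of them were lower with AVP. By limma 0 of 19 passed the adjusted threshold, as did 3 of 39364 rows (0.00762%). At an unadjusted p under 0.05, 7 of 19 were lower, against 10.7% of all rows. Leaving out saline male 12 made it 6 of 19. With median-of-ratios scaling it was 5 of 19, against 5.53% of all rows, Cers2-201 (-0.13) and Cers4-201 (-0.18) no longer being among them. The 7 were Cers2-201, Cers2-203, Cers2-204, Cers4-201, Cers4-204, Cers4-207 and Cers5-206. In females 0 of 22 member rows passed the adjusted threshold (0% of 37806 rows, 1156 with an unadjusted p under 0.05), and 0 of 22 had an unadjusted p under 0.05.

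Among the rows of Cers2 and Cers4 that passed the filter in males, coding rows had smaller differences than the others. They ran from -0.31 to -0.35, against -0.37 to -1.07 for the others, on the log2 scale. Rows under the filter did not keep that order throughout, the coding row Cers2-205 having -0.89. Cers2-201, with 62.8% of the Cers2 TPM, was at 24.4, 23.7, 26.4 and 32.04 TPM in AVP males and 32.3, 34.0, 34.2 and 30.8 TPM in saline males. These ranges overlapped, with a log2 fold change of -0.31 ± 0.11 (SE; adjusted p = 0.375 by limma). The retained intron row Cers2-204 was at 1.84, 1.05, 3.24 and 3.44 TPM with AVP and 6.02, 3.56, 5.10 and 5.13 TPM with saline, without overlap. That gave a log2 fold change of -0.99 ± 0.33 (SE; adjusted p = 0.372 by limma). Cers2-203, also a retained intron, was lower by -0.62 on the log2 scale.

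Cers4 was mostly TPM of rows not annotated as coding: 76.4% ± 3.68 (SD, n = 15), against 28.1% ± 5.19 for Cers2 and 3.77% ± 0.862 for Cers5. The coding row Cers4-201 was at 4.69, 5.95, 6.56 and 6.34 TPM in AVP males and 7.53, 6.61, 8.47 and 7.89 TPM in saline males. The ranges did not overlap, and limma gave a log2 fold change of -0.35 ± 0.15 (SE; adjusted p = 0.407). The retained intron row Cers4-207 was at 2.01, 1.96, 3.35 and 2.43 TPM with AVP and 6.69, 5.13, 7.47 and 3.68 TPM with saline. Again every AVP male was lower, which held for 5.88% of all rows that passed the filter over the 15 libraries. The fold change of Cers4-207 was -1.07 ± 0.26 on the log2 scale (SE), with adjusted p = 0.357 by limma. Cers4-204, a row annotated for nonsense-mediated decay, was at 2.57 to 6.11 TPM with AVP and 6.23 to 12.4 TPM with saline. Cers4-205, Cers4-206 and Cers4-207 had no 31-base word of their own, so their split rests on the same kind of estimate as that of Gdf1-201.

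Cers5 and Cers6 were carried by coding rows. Cers5-201 held 47.5% and Cers5-202 29.2% of the Cers5 TPM, and their log2 fold changes in males were -0.20 ± 0.11 and -0.03 ± 0.13 (SE). Scaled by median of ratios they were -0.024 and 0.14, so Cers5-202 turned direction. Cers5-206, a short coding row with 239 words of its own, stood out among them. It was at 2.31, 4.003, 3.88 and 4.68 TPM in AVP males and at 9.07, 6.06, 7.50 and 6.93 TPM in saline males. The log2 fold change was -0.92 ± 0.22 (SE; adjusted p = 0.357 by limma). Cers6-201, with 85.1% of the Cers6 TPM, was at 17.6 to 22.8 TPM with AVP and 21.3 to 25.8 TPM with saline. These ranges overlapped, and the fold change was -0.23 ± 0.11 (SE).

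**Figure D5:**
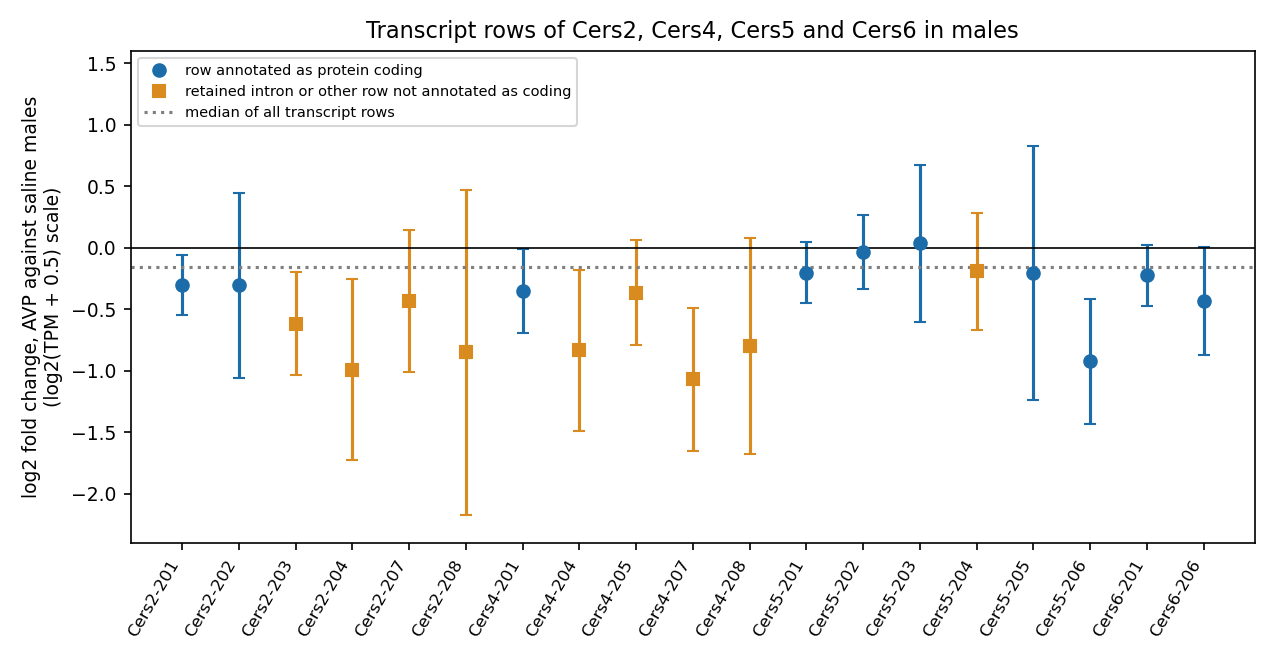
Log2 fold change of AVP against saline males for the 19 transcript rows of Cers2, Cers4, Cers5 and Cers6 that passed the filter, on the log2(TPM + 0.5) scale. Whiskers are 95% intervals of the limma fit, circles are coding rows, squares are retained intron rows and other rows not annotated as coding, and the dotted line is the median of all rows. The squares of Cers2 and Cers4 lie lower than the circles of the same genes.

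The same order was seen in the table at large, so it was not particular to the synthases. In males, the 7 retained intron rows of the 4 genes had a median log2 difference of -0.80 and the 10 coding rows one of -0.27. Over all rows, 7662 retained intron rows had a median of -0.52, with 6851 lower with AVP, and 23366 coding rows a median of -0.08. With median-of-ratios scaling the medians of the synthase rows were -0.65 and -0.11, and those of all rows -0.37 and 0.09. Retained intron rows took 3.52% to 5.94% of the TPM in AVP males and 5.53% to 6.55% in saline males. The part of this in the gene-level values of Cers2 and Cers4 was not tested. Their coding rows alone summed to 26.4 to 34.9 TPM (Cers2) and 4.69 to 6.93 TPM (Cers4) in AVP males. In saline males the sums were 34.1 to 41.6 TPM and 6.61 to 9.30 TPM, so each pair of ranges overlapped.

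As shares of their gene, tested as the log2 ratio of a row to the rest of its gene, 0 of 19 rows passed in males (3 of 33113 rows, 0.00906%). At an unadjusted p under 0.05 there were 4 of 19, against 9.49% of all rows. Cers2-201 (0.51) and Cers4-205 (0.39) took a larger share with AVP, and Cers4-207 (-0.48) and Cers5-206 (-0.78) a smaller share. Without saline male 12 there were 2 of 19, Cers4-205 and Cers5-206. In females, 0 of 21 rows had an unadjusted p under 0.05, and by limma 0 of 31449 passed, 796 having an unadjusted p under 0.05.

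The rest of the sphingolipid pathway gave a reference for the synthases. Of 40 genes on the list, 32 were tested in males: 27 were lower with AVP, 0 passed the adjusted threshold in either direction, and their median log2 fold change of -0.11 was close to the -0.10 of all genes. At an unadjusted p under 0.05, 7 were lower and 1 was higher. Of all genes tested, 73.6% were lower with AVP and 12.4% were lower at that p. At the entry to the pathway, the serine palmitoyltransferase subunits had log2 fold changes of -0.29 ± 0.062 (Sptlc2), -0.16 ± 0.11 (Sptlc1) and 0.11 ± 0.072 (Sptssa, its small activating subunit), with SE. Of the ORMDL proteins, which restrain that enzyme, Ormdl1 was higher by 0.31 ± 0.10 (SE; adjusted p = 0.307 by limma). Ormdl1 is on the list of genes that the study chose on these libraries, so its direction is not independent. Ormdl2 and Ormdl3 had values of -0.05 and 0.04. The enzymes directly before and after the synthases, Kdsr (reduction of the sphingoid base) and Degs1 (desaturation of dihydroceramide), had -0.11 and -0.09.

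Genes that use or break down ceramide were spread around the same median. The ceramide transfer protein, listed as Col4a3bp, had -0.31 ± 0.084 (SE; adjusted p = 0.304 by limma). Glucosylceramide synthase (Ugcg) had -0.01, sphingomyelin synthase 1 (Sgms1) -0.03, acid ceramidase (Asah1) -0.01 and ceramide kinase (Cerk) -0.13. The sphingosine kinases had 0.15 (Sphk1) and -0.21 (Sphk2), and sphingosine-1-phosphate lyase (Sgpl1) -0.30 ± 0.11 (SE). In females 32 were tested and 0 passed, with a median of -0.07 against -0.05 for all genes. The fatty acid elongation and acyl-CoA supply genes, which provide the synthases' other substrate, had 12 of 13 tested in males. Of these 0 passed, 9 were lower, and the log2 fold changes ran from -0.30 (Elovl1) to 0.10 (Dbi), with a median of -0.11.

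The partners of GDF1 were mostly at or near 0 in this tissue. Nodal had 0.0526 to 0.334 TPM, Gdf3 0 to 0.192 TPM, the co-receptors Tdgf1 and Cfc1 at most 0.298 and 0.0585 TPM, and the transcription factor Foxh1 at most 0.238 TPM. The receptors and effectors that Nodal shares with activin were well above them. Acvr1b averaged 50.8 TPM, Acvr2a 40.4 TPM, Acvr2b 9.51 TPM, Smad2 42.5 TPM and Smad4 48.8 TPM over the 15 libraries. Their log2 fold changes in males were -0.14, 0.05, -0.13, -0.11 and -0.15, in that order. Furin, a protease that cuts such ligands to their mature form, had -0.38. Of the 18 genes on the list 11 were tested in each sex, and 0 passed in either, with adjusted p of at least 0.304 by limma. In males 9 of the 11 were lower, and the log2 fold changes ran from -0.38 (Furin) to 0.68 ± 0.41 (Lefty2, SE). Lefty2 averaged 3.54 TPM and had -0.50 ± 0.45 (SE) in females.

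The nearest protein-coding genes on either side of Cers1 showed whether the region as a whole differed. On one side, Cope, Ddx49 and Homer3 had male log2 fold changes of -0.09, -0.12 and -0.14, close to the median of all genes, and their ranges overlapped between the groups. On the other, Upf1 had -0.16 ± 0.11 (SE) with overlapping ranges, and Comp was at no more than 0.380 TPM in any library. Crtc1, a coactivator of CREB, was at 29.0 to 32.4 TPM in AVP males and 34.6 to 42.3 TPM in saline males. Those did not overlap, and the log2 fold change was -0.35 ± 0.080 (SE; adjusted p = 0.304 by limma). In females Crtc1 had -0.24 ± 0.20 (SE) and overlapping ranges.

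Cers1 and Gdf1 also share a start in RefSeq, whose promoter table (GRCm38.p6, 1 window around each annotated start) gives both the window chr8:70315525-70315824 and Gdf1 a second window inside Cers1. The shared window held 22 CG dinucleotides, against a median of 7 over 32851 windows of the same length. The windows of the other expressed synthases held 30 and 6 (Cers2, 2 starts), 14 (Cers4), 20 (Cers5) and 28 (Cers6), and the second window of Gdf1 held 8. That of Cers3, which was near 0 in these libraries, held 7.

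The genes with the pattern most like each member were found by Pearson's r of log2(TPM + 0.5) over the 15 libraries, among 15078 genes. These points share libraries and total, so r is a description. For Cers1 they included Pacs1 (0.96) and Got2 (0.95), for Cers2 they were Clcn2 (0.97), Agbl5 (0.97) and Mink1 (0.97), and for Cers4 Eps15l1 (0.97), Rnf44 (0.97) and Slc39a13 (0.96). For Cers5 they were Cdc42bpb (0.95), Slc38a7 (0.94) and Zmynd15 (0.93), and for Cers6 Kif21b (0.98), Sbf2 (0.97) and Usp31 (0.96). Gdf1 had no gene as close: Rpl13 (0.85), Gm4149 (0.83) and Cox14 (0.82) came first. Among members, Cers2 and Cers4 were most alike (0.92). Gdf1 ran against each synthase, from -0.20 with Cers1 to -0.67 with Cers6. All r values of Gdf1 include the male values on which the locus was selected, so their direction is not independent of that choice. Rpl13, like Ormdl1, is on the list of genes that the study chose on these libraries.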

How the data were processed

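Reads of stranded mRNA-seq libraries were trimmed by the authors with Trim Galore 0.4.1 and quantified with kallisto 0.43.1, with strand and bias correction, against GENCODE M16 transcripts (GRCm38). The deposited table holds 1 TPM value per transcript and library, made by the authors relative to transcript length and library total. The table does not name its unit, which was read from library totals of 1000000, and depth is unknown, so no counting error is given. Here transcript TPM were summed to genes with GENCODE M21, and 404 transcripts without a gene (0.154% to 0.199% of TPM) were left out. Rows were compared by their 31-base words in M21 sequences. AVP and saline were compared within each sex by limma 3.58.1 (R 4.3.3) on log2(TPM + 0.5), letting the variance follow the mean, for all features that reached 1 TPM in 50% or more of the libraries compared, with Benjamini-Hochberg adjustment over all of them and a threshold of 0.05. Fold changes on this scale understate the change of low genes, and p-values measure the spread between these brains, some of which share a litter. The fits were tested on simulated data. Single values had exact two-sided permutation tests (scipy 1.17.1). The members, the pathway lists and the rule for named genes (members, set genes of each list, 3 neighbours on each side of Cers1, the 3 genes most like each member, 1 of which is not reported here) were chosen with earlier results of these data known. Alternatives were pseudocounts of 0.1 and 1, no filter or 5 TPM in every library, quantile and median-of-ratios scaling, no trend, the run of library numbers, a joint fit of the 15 libraries as 4 groups, and omitting every library in turn. The count of members without overlap under other scaling was added after seeing the data. Figures were drawn with matplotlib 3.10.9.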

Additional observations from a re-analysis of the deposited data

Results flagged for a closer look

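Among 33 groups of 4 libraries examined for the members and the locus sums, 5 held a library far from the other 3 by Dixon's criterion, which chance alone meets in about 1 in 20 groups. The groups share libraries and rows, so the number is not set against chance. Gdf1 was at 0.399 TPM in saline male 5, the other saline males being listed at 0, and with 3 values at 0 any other value would stand apart. These are also the values on which the locus was selected. It was at 9.22 TPM in saline female 6. That library also had the highest full-length sum of its group, 30.9 TPM. The rows annotated with the GDF1 frame summed to 25.4 TPM in AVP male 1. Cers6 was at 20.5 TPM in AVP male 1, below the rest of its group. The causes were not tested.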

How the results depend on the processing

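TPM hold no depth, so counting error behind low values such as those of Gdf1 is unknown, and 3 or 4 libraries per group limit every comparison. No paired analysis was possible because the labels do not tie a brain to a litter. The male fold changes of Cers2, Cers4, Cers5 and Cers6 kept their direction and stayed past no threshold in all 68 alternatives, with adjusted p from 0.125 to 0.624, but Cers5 ran from -0.27 to -0.12 and Cers6 from -0.31 to -0.12, the smallest values with quantile scaling. Of the rows, the 7 described by sample values or as main rows (Cers2-201, Cers2-204, Cers4-201, Cers4-207, Cers5-201, Cers5-206 and Cers6-201) kept their direction in all 115, with Cers5-201 as small as -0.024 (median-of-ratios) and Cers4-201 -0.14 (quantile). In females 5 of 95 alternatives turned a direction: Cers2 had 0.11, 0.017 and 0.0045 without AVP female 3, saline female 15 and saline female 6 (range -0.30 to 0.11), Cers6 0.073 without AVP female 11 (range -0.31 to 0.073), and Gdf1 0.10 without AVP female 10. The latter also turned its permutation test (p = 0.800), whose values ran from -1.23 to 0.10 without 1 library. The sex by treatment difference of Cers6 became -0.054 without AVP female 10 (range -0.054 to 0.33). The sex differences of Cers1, Cers2 and Cers4 became 0.0080, 0.026 and 0.027 without saline male 12. The causes were not tested.

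Counts of all called features moved as well. The 4 tested members without overlap in males became 2 with median-of-ratios scaling. In males, the 1 gene called became 0 with pseudocount 1, with at least 5 TPM in every library, with the run of library numbers and with 1 fit of all 15 libraries, 2 without the trend, and 0 to 6 without 1 library. The 3 rows called became 0 with no filter or at least 5 TPM, 1 with pseudocount 1, 5 with median-of-ratios scaling, and 0 to 11 without 1 library. The 3 isoform ratios called became 5 with pseudocount 0.1 and 0 to 3 without 1 library. In females the 0 genes called became 0 to 6, the 0 rows 0 to 1 (1 with no trend) and the 0 isoform ratios 0 to 7 without 1 library. The 0 genes of the interaction became 0 to 1, and those of the sex difference 7 without saline male 12.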
